A study of Mus musculus with 10 samples.

Results

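The mitochondrial beta-oxidation spiral was followed through 10 genes that encode its enzymes in mouse ventricles, chosen by name from the probe sets whose only annotated gene symbol was one of them. The 10 genes had 11 such probe sets among 35556 on the array, and all 10 genes were among the 13953 of 19938 named genes bright enough to be tested. Of the 10 genes, 8 fell in the tamoxifen-labelled arrays, beside 8.28% of all tested genes, and 2 were not called. Of the 8, 6 were called in all 18 alternative fits, and Acadl and Acadm were not. The falls were unequal. Echs1 (1.79-fold) and Acadvl (1.60-fold) fell furthest, and Acads, Etfdh and Hadh fell 1.23-fold to 1.25-fold. Acaa2, Acadl and Acadm fell 1.11-fold to 1.14-fold. The genes of both subunits of the trifunctional protein, Hadha and Hadhb, did not pass the test.

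Expression was measured on Affymetrix gene arrays, 1 array per mouse, in tissue labelled cardiac biventricle. The 5 tamoxifen-labelled mice carried PGC-1a-/-, PGC-1b flox/flox and MerCre, were given 50 mg/kg of tamoxifen on each of 2 days at 2 months of age, and are labelled as lacking both PGC-1a and PGC-1b. By their source names the 5 vehicle-labelled mice had the same alleles and received the oil alone, so that PGC-1a was missing in them too and PGC-1b is labelled as unaffected. Their titles read PGC-1a-/- only. All hearts were taken at 3 months of age, 1 month after the injections. Which promoter drives MerCre was not stated in the labels. No group has tamoxifen without loss of PGC-1b, so effects of the drug or of Cre itself cannot be told apart from that loss. The 2 targeted genes were not lower in the tamoxifen-labelled arrays: Ppargc1b averaged 10.03 ± 0.10 in them and 9.76 ± 0.10 in the vehicle-labelled arrays (log2 signal, SD, n = 5 each, limma adjusted p = 0.00528). Ppargc1a, whose loss the labels give for both groups, averaged 11.20 ± 0.23 and 10.81 ± 0.14 (SD, n = 5 each, limma adjusted p = 0.00813). Whether either probe set lies in a deleted exon was not tested, so every direction here rests on the labels. Among the tamoxifen-labelled arrays, array 5 had the highest atrial markers of all 10 arrays and array 2 the highest median signal, and results are given below with and without each.

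Beta-oxidation shortens a fatty acyl-CoA inside the mitochondrion by repeated turns of the same reactions: an acyl-CoA dehydrogenase introduces a double bond, a hydratase adds water, a hydroxyacyl-CoA dehydrogenase oxidises the product and a thiolase releases acetyl-CoA. Long chains are handled at the inner membrane by the very-long-chain dehydrogenase and the trifunctional protein, which joins the later reactions in one complex, and shorter chains are handled by separate enzymes in the matrix. Electrons from the acyl-CoA dehydrogenases pass through the electron transfer flavoprotein to ETFDH and on to coenzyme Q. The adult heart is known to draw most of its energy from this pathway, and the coactivators PGC-1a and PGC-1b are known to act with PPAR and ERR receptors on its genes.

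The 250 bases before the annotated start of 5 of the genes are shown, 5′ to 3′, because these genes span the range of responses: the deepest falls (Echs1, Acadvl), a middle one (Etfdh), a small one (Acadm) and the trifunctional protein pair, whose genes point away from each other. The sequences are from RefSeq on GRCm38.p6. Capitals mark matches, on either strand, to AAGGTCA (a site bound by ERR receptors), to GCATGCGC (part of the site of nuclear respiratory factor NRF1; with GC before it, it makes the whole NRF1 palindrome, so the matches overlap) and to GGGCGG (the GC box).
Echs1 (chr7:140116422-140116671, minus strand): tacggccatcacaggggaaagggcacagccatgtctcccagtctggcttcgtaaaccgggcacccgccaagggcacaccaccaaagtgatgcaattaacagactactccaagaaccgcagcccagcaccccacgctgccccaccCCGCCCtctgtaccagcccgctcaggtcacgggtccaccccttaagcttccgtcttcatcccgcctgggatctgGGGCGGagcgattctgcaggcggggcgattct
Acadvl (chr11:70015429-70015678, minus strand): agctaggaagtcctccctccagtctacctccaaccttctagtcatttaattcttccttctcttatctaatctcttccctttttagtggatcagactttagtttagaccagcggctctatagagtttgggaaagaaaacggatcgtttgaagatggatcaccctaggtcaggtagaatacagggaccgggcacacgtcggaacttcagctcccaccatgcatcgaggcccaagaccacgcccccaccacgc
Etfdh (chr3:79628768-79629017, minus strand): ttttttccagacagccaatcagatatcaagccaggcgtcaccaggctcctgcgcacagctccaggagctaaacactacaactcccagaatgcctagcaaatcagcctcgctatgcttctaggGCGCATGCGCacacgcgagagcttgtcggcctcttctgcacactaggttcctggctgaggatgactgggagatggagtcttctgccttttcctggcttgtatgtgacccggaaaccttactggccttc
Acadm (chr3:153944644-153944893, minus strand): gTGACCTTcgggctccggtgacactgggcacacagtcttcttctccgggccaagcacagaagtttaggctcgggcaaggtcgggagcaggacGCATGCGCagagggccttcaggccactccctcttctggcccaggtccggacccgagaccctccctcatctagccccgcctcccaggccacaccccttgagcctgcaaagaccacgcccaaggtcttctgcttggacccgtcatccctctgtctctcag
Hadhb (chr5:30155003-30155252, plus strand): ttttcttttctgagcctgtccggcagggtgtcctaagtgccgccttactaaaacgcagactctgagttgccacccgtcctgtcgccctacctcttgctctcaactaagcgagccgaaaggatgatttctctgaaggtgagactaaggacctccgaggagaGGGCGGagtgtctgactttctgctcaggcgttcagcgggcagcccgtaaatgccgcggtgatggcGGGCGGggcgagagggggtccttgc
The starts of Hadha and Hadhb lie 272 bases apart on chromosome 5, so the sequence printed for Hadhb is also most of the Hadha promoter, read from the other strand. It held 2 GC boxes and no match to the ERR or NRF1 letters. Of the 10 genes, 9 had an entry among 32851 promoter windows. AAGGTCA was found in 1 of these 9 (Acadm) against 4.08% of all windows, the NRF1 palindrome in 1 (Etfdh) against 0.782%, GCATGCGC in 2 (Etfdh and Acadm) against 2.26%, and the GC box in 6 against 32.7%. The 6 include both Hadha and Hadhb, whose windows overlap. The printed stretch of Acadvl, the second deepest fall, had no match to any of these letters. These matches describe the letters only.

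Of the 10 genes, 8 passed limma's test as lower (Benjamini-Hochberg adjusted p under 0.05 over all 13953 genes), beside 8.28% of all tested genes, and 0 passed as higher, beside 13.6% (21.9% of all tested genes were called in either direction). At an unadjusted p under 0.05 the counts were the same, 8 and 0. In 7 of the 10 genes every tamoxifen-labelled value lay below every vehicle-labelled one, beside 6.12% of all tested genes. The median log2 fold change (tamoxifen-labelled minus vehicle-labelled, here and below) was -0.25 over the 10 genes and 0.014 over all tested genes. In bulk tissue, fewer cells of a type and less RNA per cell cannot be told apart. Nothing in the labels says whether mice of a group shared a litter or a cage, and p-values measure the spread between these arrays.

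**Figure D1:**
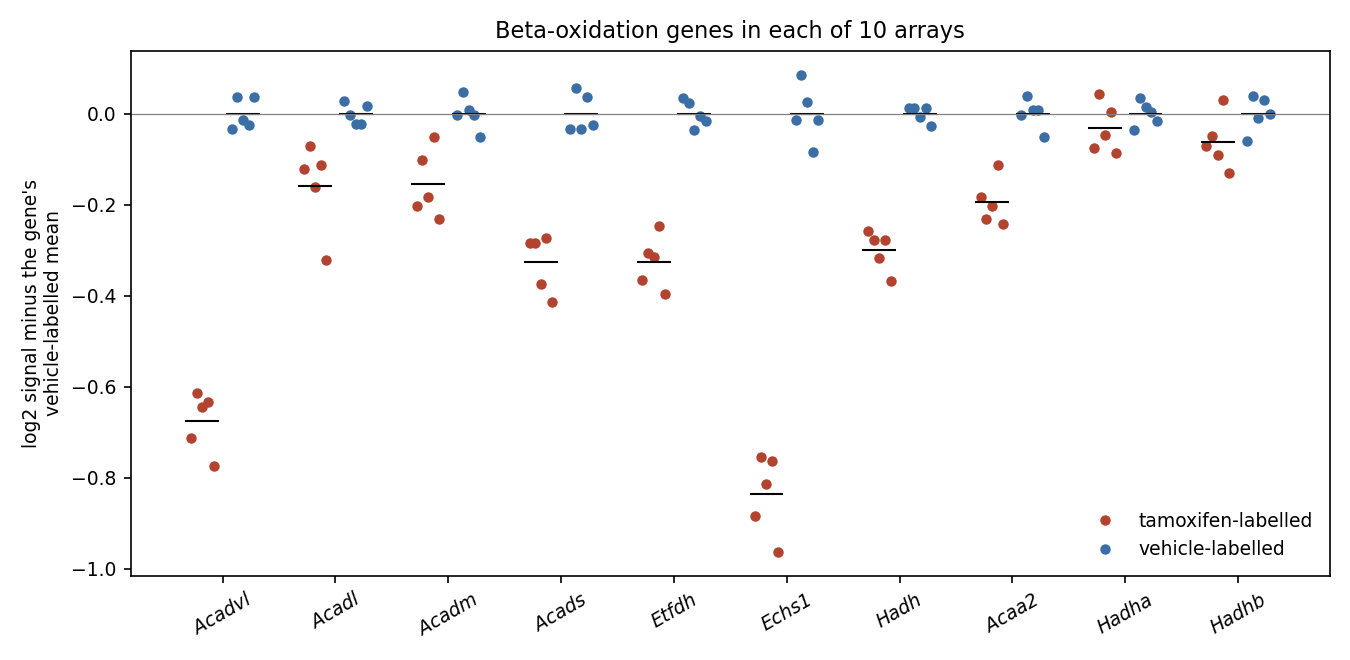
Each point is 1 array, given as its log2 signal minus the same gene's mean over the 5 vehicle-labelled arrays, with tamoxifen-labelled arrays on the left of each gene, vehicle-labelled arrays on the right, and black bars at group means. The groups are apart in 7 genes and overlap in Acadm, Hadha and Hadhb.

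The 4 acyl-CoA dehydrogenases, which open each turn and differ in the chain length they accept, did not fall by the same amount. For Acadvl, which takes very long chains at the inner membrane, log2 signals were 10.45, 10.55, 10.52, 10.53 and 10.39 in the tamoxifen-labelled arrays 1 to 5, against 11.13, 11.20, 11.15, 11.14 and 11.20 in the vehicle-labelled arrays 1 to 5. The groups were far apart: the highest tamoxifen-labelled value was lower than the lowest vehicle-labelled value by far more than the SD of either group (0.066 and 0.034). Acadvl fell by 0.68 ± 0.048 (SE, adjusted p = 4.04e-08), to 62.6% of the vehicle-labelled level (95% interval 58.3% to 67.1%).

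Acadl, which takes long chains, read 12.48, 12.53, 12.44, 12.49 and 12.28 in the tamoxifen-labelled arrays, against 12.63, 12.60, 12.58, 12.58 and 12.62 in the vehicle-labelled arrays. The groups did not overlap, but they were separated by only a narrow gap, and array 5 of the tamoxifen-labelled group stood below the other 4. Its change was -0.16 ± 0.052 (SE, adjusted p = 0.0403). For Acadm, which takes medium chains, the tamoxifen-labelled arrays gave 13.40, 13.50, 13.42, 13.55 and 13.37, against 13.60, 13.65, 13.61, 13.60 and 13.55 in the vehicle-labelled arrays. The groups met at 13.55, the value of the highest tamoxifen-labelled and the lowest vehicle-labelled array. Its change was -0.15 ± 0.049 (SE, adjusted p = 0.0340). Both calls were weak. Acadl lost its call when any 1 of 9 arrays was left out, that is, all except tamoxifen array 2 (adjusted p from 0.0523 to 0.105). Acadm lost its call when vehicle array 1, 2, 3 or 4 was left out, or tamoxifen array 1, 3 or 5 (0.0528 to 0.0866).

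Acads, which takes short chains, read 10.70, 10.70, 10.61, 10.71 and 10.57 in the tamoxifen-labelled arrays, against 10.95, 11.04, 10.95, 11.02 and 10.96 in the vehicle-labelled arrays. The groups were apart in every array. It fell by 0.33 ± 0.048 (SE, adjusted p = 0.000127), to 79.8% of the vehicle-labelled level (95% interval 74.3% to 85.6%). Ordered by chain length, the changes were thus -0.68 for very long, -0.16 for long, -0.15 for medium and -0.33 for short chains, with no run in one direction.

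Etfdh receives the electrons of all these dehydrogenases and hands them to coenzyme Q. It read 12.21, 12.27, 12.26, 12.33 and 12.18 in the tamoxifen-labelled arrays, against 12.61, 12.60, 12.54, 12.57 and 12.56 in the vehicle-labelled arrays, with no overlap. It fell by 0.33 ± 0.046 (SE, adjusted p = 8.72e-05). The 2 genes of the flavoprotein that supplies it fell as well. Etfa changed by -0.48 ± 0.050 and Etfb by -0.31 ± 0.046 (SE), with adjusted p-values of 3.34e-06 and 0.000135, and neither had overlapping groups.

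Echs1, the matrix hydratase that adds water to short enoyl-CoA chains, fell furthest. It read 10.61, 10.74, 10.68, 10.73 and 10.53 in the tamoxifen-labelled arrays, against 11.48, 11.58, 11.52, 11.41 and 11.48 in the vehicle-labelled arrays. The groups were wide apart. The fall was 0.84 ± 0.054 (SE, adjusted p = 1.44e-08), which left 56.0% of the vehicle-labelled level (95% interval 51.8% to 60.6%), and 0.387% of all tested genes had a lower log2 fold change.

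Hadh, the matrix enzyme that oxidises short and medium hydroxyacyl-CoA, read 13.10, 13.08, 13.04, 13.08 and 12.99 in the tamoxifen-labelled arrays, against 13.37, 13.37, 13.35, 13.37 and 13.33 in the vehicle-labelled arrays. Its groups were apart, and its vehicle-labelled SD of 0.018 was the smallest in the family. It fell by 0.30 ± 0.044 (SE, adjusted p = 0.000124). For Acaa2, the matrix thiolase that closes the turn, the tamoxifen-labelled arrays gave 13.30, 13.25, 13.28, 13.37 and 13.24, against 13.48, 13.52, 13.49, 13.49 and 13.43 in the vehicle-labelled arrays. The groups were apart by a small step, and the fall was 0.19 ± 0.046 (SE, adjusted p = 0.00616).

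The trifunctional protein carries out the last 3 reactions of each turn on long chains. Hadha, the gene of its alpha subunit with the hydratase and hydroxyacyl-CoA dehydrogenase activities, read 13.29, 13.41, 13.32, 13.37 and 13.28 in the tamoxifen-labelled arrays, against 13.33, 13.40, 13.38, 13.37 and 13.35 in the vehicle-labelled arrays. The groups overlapped, and the highest of all 10 values was a tamoxifen-labelled one. The change was -0.032 ± 0.046 (SE, adjusted p = 0.677), with a 95% interval from -0.13 to 0.065. Hadhb, the gene of the beta subunit with the thiolase activity, read 12.93, 12.95, 12.91, 13.03 and 12.87 in the tamoxifen-labelled arrays, against 12.94, 13.04, 12.99, 13.03 and 13 in the vehicle-labelled arrays. These groups overlapped too. The change was -0.062 ± 0.047 (SE, adjusted p = 0.386), with a 95% interval from -0.16 to 0.038. The intervals leave room for a fall in both genes, to as little as 91.4% of the vehicle-labelled level for Hadha and 89.4% for Hadhb. The other Hadhb probe set gave values within 0.01 of these in every array, and as both are annotated to the same transcripts they are not a second measurement.

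**Figure D2:**
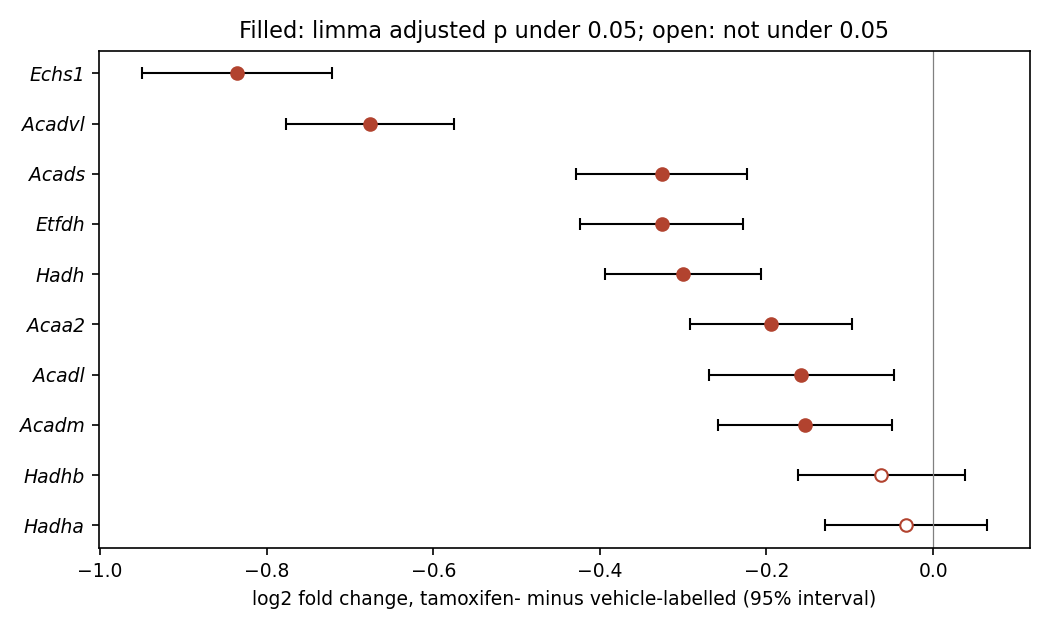
Points are limma log2 fold changes of the 10 genes, tamoxifen-labelled minus vehicle-labelled, with 95% intervals, and filled points passed an adjusted p of 0.05. Echs1 at -0.84 and Acadvl at -0.68 stand apart from the other 8, and the intervals of Hadhb and Hadha span 0.

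The difference in change between members was tested for all 45 pairs, as the per-array difference of 2 genes' log2 signals, by exact permutation of the 10 arrays (two-sided). Replicate numbers were not used to pair arrays in this permutation, and sign flips over arrays so paired can give no p under 0.0625. Of the 45 pairs, 37 differed at an adjusted p under 0.05, and 35 of these had the smallest exact permutation p that 5 against 5 arrays can give (p = 0.00794, adjusted over 45 pairs 0.0102). Echs1 fell further than each of the other 9, by 0.16 ± 0.025 more than Acadvl (SE) and by 0.80 ± 0.031 more than Hadha. Acadvl fell further than the 8 genes below it. Hadha changed less than every other member except Hadhb, from which it differed by 0.030 ± 0.023 (SE, exact permutation p = 0.254, adjusted p = 0.286). The pairs that did not pass were Acads with Etfdh, Acads with Hadh, Etfdh with Hadh, Acadl with Acadm, Acadl with Acaa2, Acadm with Acaa2, Acadl with Hadhb and Hadha with Hadhb. Their differences were at most 0.096 in size, with SEs from 0.020 to 0.045. The order of change therefore had Echs1 first and Acadvl next, then Acads, Etfdh and Hadh together, then Acaa2, Acadl and Acadm together, and last Hadhb and Hadha, with Acadl and Hadhb not told apart.

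**Figure D3:**
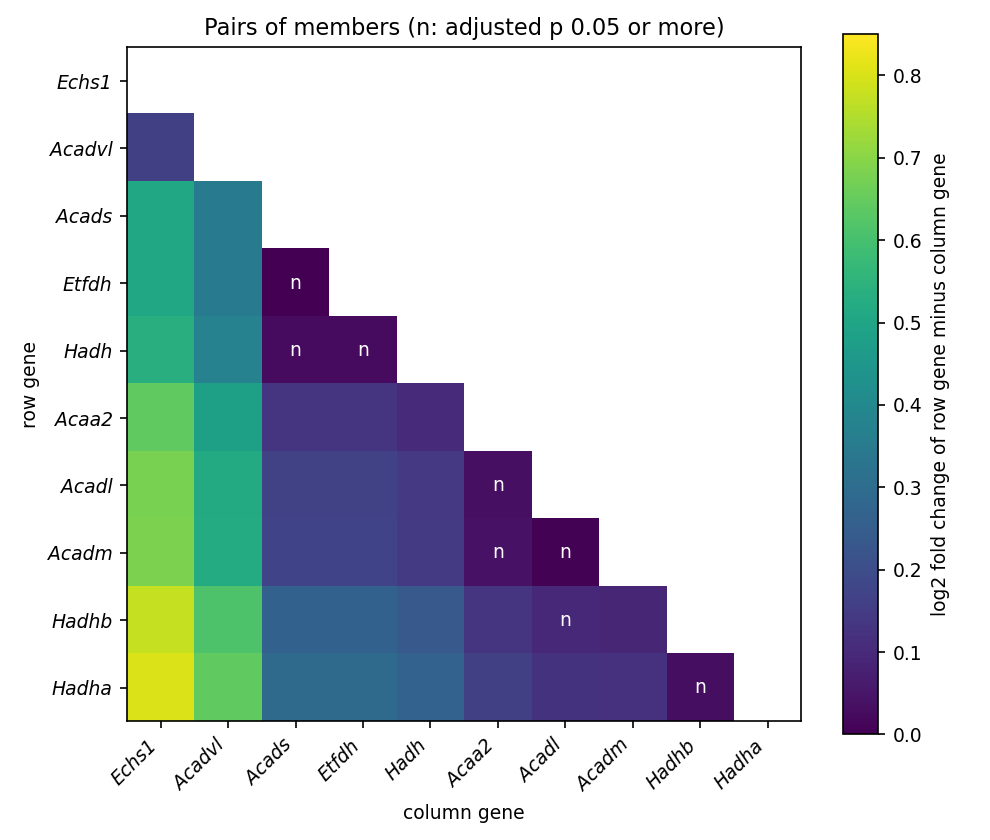
Cells give the log2 fold change of the row gene minus that of the column gene, for 45 pairs of the 10 genes, ordered by their change, with n where the adjusted p was 0.05 or more. The 8 cells with n lie along the diagonal, between genes next to or near each other in the order.

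Pairs that do the same chemistry on different chains can be read from these tests. The short-chain hydratase gene Echs1 fell by 0.80 more than Hadha, the matrix hydroxyacyl-CoA dehydrogenase gene Hadh by 0.27 ± 0.027 more than Hadha, and the matrix thiolase gene Acaa2 by 0.13 ± 0.023 more than Hadhb (SE, each exact permutation p = 0.00794, adjusted p = 0.0102). Being located at the inner membrane did not go with one response, since Acadvl fell by 0.64 ± 0.021 more than Hadha (same p). Signal was high in many members: 5 of the 10 genes (Acadm, Acaa2, Hadha, Hadh and Hadhb) had vehicle-labelled means of 13 or more. The 2 deepest falls were in genes with means of 11.49 and 11.16, and Acads, the dimmest member at 10.98, fell by 0.33. Among the 113 tested genes at or above 13, 40 (35.4%) were called lower, beside 8.28% of all tested genes and 19.0% of those from 11 to 13. Of the 113 genes, 17 fell by at least 0.5 and the deepest, Cyc1, fell by 1.13, while their median change was -0.012. The part of signal level in the unequal falls was not tested.

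Within the tamoxifen-labelled group, array 5 had the lowest value in 10 of the 10 genes, beside 26.8% of all tested genes and 37.7% of the genes called lower. The atrial markers Myl7, Myl4 and Sln, which encode an atrial light chain of myosin, another that marks the atria and a calcium pump inhibitor, stood apart in the same array. Myl7 read 8.99, 10.03, 8.81, 9.64 and 10.54 in the tamoxifen-labelled arrays 1 to 5, against 9.70 to 10.04 in the vehicle-labelled arrays. Array 5 was the highest of all 10 arrays in each of the 3, at 10.54, 12.26 and 8.04, and tamoxifen arrays 1 and 3 were the lowest in each. Without array 5, 6 members were called lower, Echs1 changed by -0.80, Acadvl by -0.65 and Acads by -0.30, while Acadl (-0.12, adjusted p = 0.105) and Acadm (-0.13, adjusted p = 0.0866) were not called. The part of atrial tissue in the values of array 5 was not tested. Array 5 was lowest in 7 of 15 TCA cycle genes and 3 of 10 genes of complex III. The mean over the 10 genes was 12.25, 12.30, 12.25, 12.32 and 12.17 in the tamoxifen-labelled arrays 1 to 5, against 12.55, 12.60, 12.56, 12.56 and 12.55 in the vehicle-labelled arrays 1 to 5. The highest values were mostly in tamoxifen array 4 (5 genes) and array 2 (4 genes). Array 2 had the highest median signal of all arrays, 7.31 against 7.18 to 7.24 in the other 9, and was the highest of its group in 68.2% of all tested genes. Without array 2 the same 8 members were called, and over all genes the share of calls that were higher moved to 49.6%, against 62.2% with all arrays. After quantile normalization, array 5 was lowest in 8 of the 10 genes and array 2 highest in 0.

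Genes next to the spiral moved to different degrees. Beside the list counts here and below, 8.28% of all tested genes were called lower and 13.6% higher. Of 8 other acyl-CoA dehydrogenases, 7 fell (median -0.33). Ivd (-0.55 ± 0.055, SE), Acadsb (-0.53) and Gcdh (-0.48), which oxidise intermediates of leucine, isoleucine and lysine breakdown, were the deepest. Of 15 tested auxiliary genes, 6 fell (median -0.12), among them Nudt7 (-0.50), which hydrolyses CoA in peroxisomes, and Amacr (-0.43), a racemase for branched chains. Eci1 and Decr1, which prepare the double bonds of unsaturated chains for the spiral, read 0.024 ± 0.048 and -0.072 ± 0.049 (SE) and were not called.

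Of 8 tested genes of fatty acid activation and the carnitine shuttle, which bring chains to the spiral, 4 fell and 1 rose (median -0.13). The carnitine acyltransferase genes Cpt2 and Crat fell by 0.26 ± 0.051 and 0.18 ± 0.042, and the carnitine transporter gene Slc22a5 fell by 0.29 (SE, highest adjusted p of the 3 was 0.00603). The fourth, Cpt1a (-0.16, adjusted p = 0.0437), and the one that rose, Acsl5 (0.18, adjusted p = 0.0303), lost their calls without 1 of several arrays: 6 of 10 for Cpt1a (vehicle 1, 3 or 5 or tamoxifen 3, 4 or 5) and 6 of 10 for Acsl5 (vehicle 1, 3 or 4 or tamoxifen 1, 2 or 4). Both also lost their calls without the filter on dim genes, and Cpt1a with arrays centred on their median. Their adjusted p reached 0.120 and 0.0811 over the alternatives. Of 8 tested genes of fatty acid uptake, 1 fell, beside 8.28% of all tested genes, and the median was -0.018. The gene that fell was the transporter gene Slc27a1 (-0.43 ± 0.071). The uptake genes Cd36, Fabp3 and Lpl were not called, at 0.042, 0.080 and -0.0020.

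Of 8 tested genes that control the pathway through malonyl-CoA, AMPK or removal of acyl groups, 3 fell and 1 rose (median -0.019). Over all tested genes, 8.28% were called lower and 13.6% higher. The mitochondrial deacylase genes Sirt3 and Sirt5, whose proteins act on beta-oxidation enzymes, fell by 0.64 ± 0.057 and 0.45 ± 0.056 (SE), and the AMPK subunit gene Prkaa2 rose by 0.24 ± 0.052. The count that rose was 3 with arrays centred on their median or with the 50% filter, and 2 with quantile normalization, array weights or without vehicle array 1. The third that fell was Mlycd (-0.18, adjusted p = 0.0265). Mlycd lost its call without the filter on dim genes, and when vehicle array 2, 3 or 5 or tamoxifen array 1 or 3 was left out (up to 0.0759). Of 12 tested peroxisomal genes, 4 fell and 1 rose (median -0.087). The deepest was Phyh (-0.88 ± 0.050), which starts alpha-oxidation rather than beta-oxidation, followed by Ehhadh (-0.56), the peroxisomal enzyme that joins hydratase and dehydrogenase activities. The gene that rose, Pecr (0.16), was not called without vehicle array 1 (adjusted p = 0.0568), and Acox3 (-0.19) was not called without tamoxifen array 3 (0.0526).

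Downstream of the spiral the changes were wider. All 15 tested genes of the TCA cycle, which takes up the acetyl-CoA, fell, with a median of -0.84 and a range from -1.25 (Sdhb) to -0.24 (Suclg2). Citrate synthase, Cs, the enzyme that accepts acetyl-CoA, fell by 0.35 ± 0.047 (SE). All 10 genes of complex III and cytochrome c, which take electrons from the coenzyme Q that ETFDH reduces, fell, with a median of -0.91 and a range from -1.13 (Cyc1) to -0.19 (Uqcrb). Uqcrb lost its call without the filter on dim genes, and when vehicle array 3 or 4 was left out, or tamoxifen array 1 or 4 (adjusted p up to 0.0719). Beside these medians stands the -0.25 of the 10 beta-oxidation genes. The gap between lists was not tested, since the lists were chosen with results known.

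**Figure D4:**
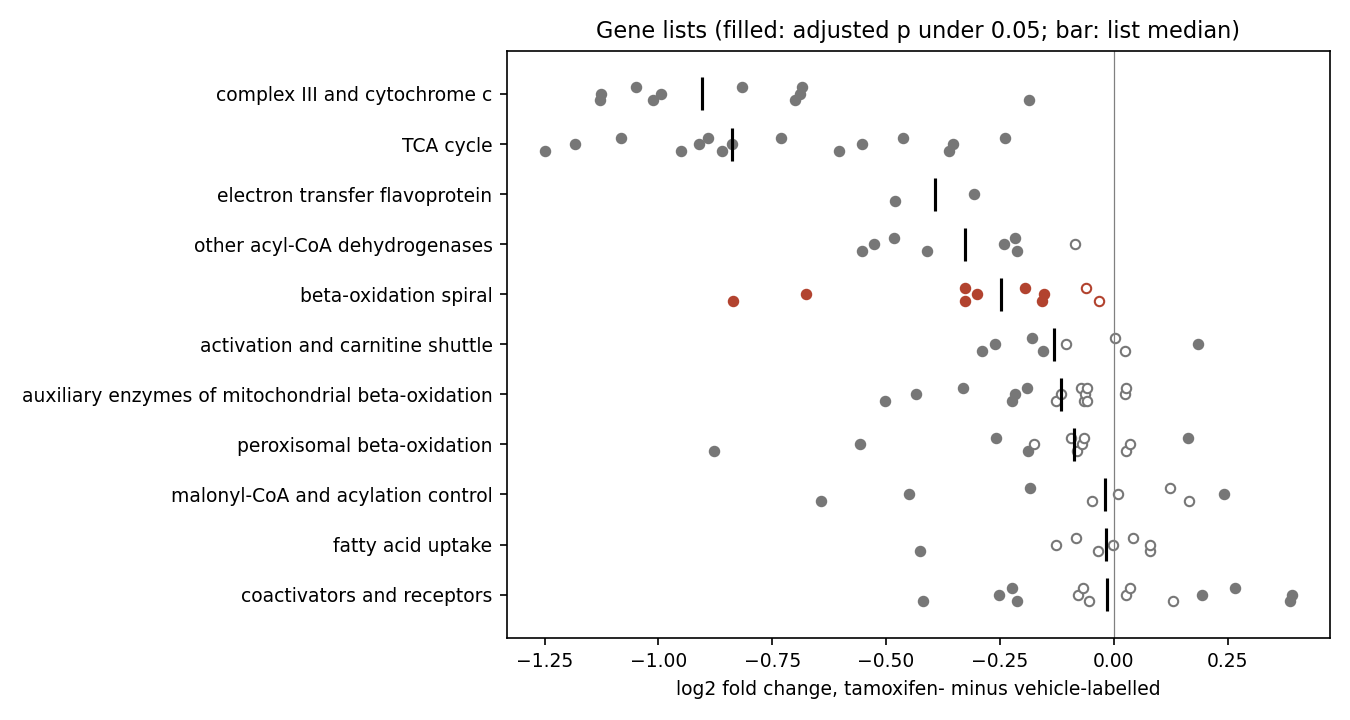
Each point is the log2 fold change of 1 gene, tamoxifen-labelled minus vehicle-labelled, by gene list, filled where the adjusted p was under 0.05, with a bar at the list median and the beta-oxidation spiral in red. List medians run from -0.91 in complex III with cytochrome c to -0.014 in coactivators and receptors, with the spiral at -0.25.

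Of 14 genes of coactivators and receptors known to act on this pathway, 4 fell and 4 rose (median -0.014). The shares over all tested genes were 8.28% lower and 13.6% higher. The ERR receptor gene Esrra fell by 0.42 ± 0.057 and Ppara, the PPAR receptor best known for fatty acid oxidation, by 0.22 ± 0.056 (SE, adjusted p = 5.55e-05 and 0.00898). Gabpa fell by 0.21 ± 0.051 (SE, adjusted p = 0.00692) and was called in all 18 alternatives. The 4 that rose were the targeted genes Ppargc1a and Ppargc1b, described above, Rxrg, a partner receptor of the PPARs (0.39 ± 0.048, SE), and Pprc1, a relative of PGC-1 (0.19 ± 0.067, SE, adjusted p = 0.0478). Pprc1 lost its call in 10 of 18 alternatives: without the filter, with array weights, and when any array was left out except vehicle array 2 or tamoxifen array 3 (up to 0.109). Esrrb, another ERR receptor gene among those that fell (-0.25, adjusted p = 0.0204), lost its call when tamoxifen array 1, 3 or 5 was left out (up to 0.0563). Esrrg was not called, at 0.026 ± 0.050.

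Heart muscle markers were read at high signal. Of 15 cardiomyocyte markers, 2 fell and 2 rose (median 0.044), and their mean log2 signal ranged from 13.44 to 13.51 over the tamoxifen-labelled arrays and from 13.44 to 13.49 over the vehicle-labelled arrays. Of 14 macrophage markers 9 rose, with list means from 8.70 to 8.97 in tamoxifen-labelled arrays and from 8.50 to 8.69 in vehicle-labelled arrays. Of 12 fibroblast markers 7 rose, with list means from 10.08 to 10.28 in tamoxifen-labelled arrays and from 9.88 to 10.03 in vehicle-labelled arrays. Endothelial markers had 1 of 12 higher, smooth muscle and pericyte markers 2 of 10 higher and skeletal muscle markers 1 of 6 tested higher. Beside these marker counts, 13.6% of all tested genes were called higher and 8.28% lower. Of 4 tested atrial markers, Nppa, the atrial natriuretic peptide gene that the ventricle can also express, rose by 0.42 ± 0.072 (SE), and the other 3 were not called, with values of -0.20 (Myl7), -0.17 (Myl4) and -0.30 (Sln) and a list median of -0.18. Myl7 had an SD of 0.72 in tamoxifen-labelled arrays and 0.14 in vehicle-labelled arrays. The adipocyte markers Adipoq and Lep, the brown fat markers Ucp1 and Elovl3 and all 6 granulocyte markers were among the dim probe sets left out. Of the other lists, 1 of 3 tested brown fat markers fell (Cpt1a, also counted in the carnitine shuttle, with a call lost in 8 of 18 alternatives), and 0 of 5 tested adipocyte and 0 of 3 tested lymphocyte markers were called by limma (0 and 1 at an unadjusted p under 0.05). The part of macrophage and fibroblast RNA in the falls of the beta-oxidation genes was not tested.

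Each member was also set against all tested genes, to find the one with the closest profile over the 10 arrays (the mean absolute difference in log2 signal after subtracting each gene's own mean). For both Etfdh and Hadh it was Idh2, the mitochondrial isocitrate dehydrogenase that uses NADP (0.014 and 0.025). For Echs1 it was Lrpprc, a mitochondrial RNA-binding protein gene (0.026), and for Acads it was Hadh (0.027), the one case of a member closest to a member. For Hadha it was Acot13, a mitochondrial thioesterase gene, tied with 1 other gene (0.020). The closest to Acadvl was Gatd3a (0.024), to Acadl the sarcomere gene Mybpc3 (0.026), to Acadm Rps6ka5 (0.022), to Hadhb Pfn4 (0.022) and to Acaa2 Nat9 (0.030). These distances describe likeness over these arrays and say nothing of shared function or control.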

How the data were processed

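RNA from 10 mouse ventricle samples was measured on 1 Affymetrix array each. The deposited values are log2 signals per probe set, given to 2 decimals; per the submitters' processing notes, the authors used RMA (Affymetrix Expression Console 1.1). They carry no counts or detection calls, so precision is limited by having 5 arrays in each group. Array medians ranged from 7.18 to 7.31, and 0 pairs of arrays were identical.

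Of 35556 probe sets, 21789 had 1 gene symbol in the platform annotation, 1621 several and 12146 none. Only those with 1 symbol were used, and 0 symbols needed updating through RefSeq (GRCm38.p6). For 999 genes with several probe sets the one with the highest mean was taken, and the dimmest 30% of genes by mean signal were left out (log2 cutoff 6.53). Groups came from the titles and source names. Groups were compared by lmFit and eBayes (limma 3.58.1, R 4.3.3) without covariates, and two-sided p-values of the 13953 genes were adjusted by the Benjamini-Hochberg method, with a threshold of 0.05. The code was tested on simulated data. Pairs of members were compared with an exact permutation test over 252 splits in SciPy 1.17.1.

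The members and lists were chosen with earlier results of these data known. Named are the members, genes of the lists, the gene closest to each member in profile, and Ppargc1a and Ppargc1b. List genes without a probe set carrying their symbol alone were not analysed here. The 18 alternatives left out each array, added a block for replicate number, used array weights or a trended and robust prior, averaged the probe sets of a gene, dropped the filter or raised it to 50%, or rescaled arrays by quantiles or by their medians. Figures were drawn with matplotlib 3.10.9.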

Additional observations from a re-analysis of the deposited data

How the results depend on the processing

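Of the 8 members called lower, 6 (Echs1, Acadvl, Acads, Etfdh, Hadh and Acaa2) were called in all 18 alternatives, with log2 fold changes from -0.87 to -0.18 and a highest adjusted p of 0.0196. Acadl was called in 8 of 18 and Acadm in 10 of 18, and both lost their calls when dim genes were kept (adjusted p = 0.0784 and 0.0665), where more genes enter the adjustment. Hadha and Hadhb were called in 0 of 18 (adjusted p from 0.377 to 0.842 and from 0.109 to 0.593). The count of members lower was 6 to 8 with each array left out. Over all genes, 1155 were lower and 1897 higher, and 1784 were lower with array weights, where 51.6% of calls were higher. With an array left out, 938 to 1649 were lower and 1491 to 1945 higher.

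Same-numbered arrays' deviations from their group means correlated by 0.17, 0.20, 0.099, 0.038 and 0.17, and 3 of 5 matched their own number best. All 5 correlations were above 0, and 2 of them were under 0.1. The labels give no batch and the numbers were not taken as pairs. Whether same-numbered arrays share a batch was not tested. The replicate number as a block gave 8 members lower, 1298 genes lower and 2225 higher, and 2 higher, against 1, among malonyl-CoA and acylation control genes. For the 45 pairs of members, sign flips of the 5 same-numbered differences, the replicate block version of the test, gave 0 pairs, since the smallest p they can give is 0.0625. Quantile normalization, averaged probe sets and each array left out gave 37 to 38 pairs past the threshold. The 10 other lists together had 51 to 61 genes lower over all alternatives, beside 56.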
